A study of Mus musculus with 16 samples.

Results

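The 10 genes described here encode proteins of the lipid droplet. They are the perilipins Plin1 to Plin5, the CIDE family genes Cidea, Cideb and Cidec, the droplet protein gene Hilpda, and Bscl2, which encodes seipin. They were picked by gene symbol from a count table of 20295 genes. All 10 were found there, and all 10 passed the filter on low counts that left 12786 genes for testing.

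The cells were BAT-LgT brown adipocytes, a wild-type mouse brown preadipocyte line immortalized with the SV40 large T antigen and studied on day 7 of differentiation. RNA-seq was used to ask how acutely stimulated lipolysis alters transcription, and whether the response needs activation or mitochondrial import of the released fatty acids (FAs). Each culture was pre-treated for 1 h with vehicle, triacsin C or etomoxir, and was then left for 3 h with or without SR-3420. By binding ABHD5, the co-activator of the lipase ATGL, SR-3420 sets off lipolysis without a β-adrenergic signal.

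The groups were vehicle (replicates 2 and 3), SR-3420 at 10 µM (replicates 1 and 3), 5 µM triacsin C (TC, 3 samples), TC with SR-3420 (3 samples), 50 µM etomoxir (ETO, 3 samples) and ETO with SR-3420 (3 samples). Vehicle replicate 1 and SR-3420 replicate 2 were not analysed here. The SR-3420 dose is that of the sample labels, and the figure legends of the paper give a higher one. Triacsin C inhibits long-chain acyl-CoA synthetases, which activate FAs, and etomoxir inhibits CPT1, which brings acyl groups into mitochondria. All 6 groups come from 1 cell line, so they describe that line. Total counts ranged from 9452861 in TC replicate 1 to 25670624 in ETO+SR-3420 replicate 1.

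Adipocytes store triglyceride in lipid droplets, and droplet proteins decide which lipases reach it. Perilipin 1 coats the droplets of mature adipocytes and, at rest, holds ABHD5 away from ATGL; perilipin 4 is also abundant in adipocytes, perilipin 5 is typical of tissues that oxidize FAs, and perilipins 2 and 3 are found in most cells. CIDEA and CIDEC sit where droplets touch and pass lipid from smaller to larger ones, and CIDEB does related work on droplets and lipoproteins in the liver. HILPDA is a small droplet protein that binds and inhibits ATGL, and seipin shapes the sites in the endoplasmic reticulum where droplets form. Several of these genes, Plin2 among them, are known targets of the FA-responsive PPAR receptors, and Hilpda is known as a gene induced by hypoxia.

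Markers fixed for the cell type were checked first. Of 12 brown adipocyte markers in the table, 11 were tested. The adipocyte genes Fabp4 (FA binding protein) and Adipoq (adiponectin) averaged 5831 and 2065 CPM (counts scaled to library size, TMM-normalized) over all 16 samples. Among the thermogenic genes Ucp1 averaged 2.16 CPM and Dio2 0.0243 CPM, while Cox8b averaged 85.1, Ppargc1a 45.5, Prdm16 21.9 and Elovl3 12.1 CPM. The cells thus held abundant mRNA of adipocyte lipid genes and little of Ucp1. Markers of other cells were scarce, with mean sums per group of 5.64 to 17.5 CPM for 6 macrophage genes, 10.2 to 15.9 CPM for 6 skeletal muscle genes and 1.51 to 3.22 CPM for 4 endothelial genes. The macrophage sum followed Cd68, which averaged 4.06 CPM with vehicle, 15.5 CPM with TC and 6.34 CPM with TC and SR-3420. By edgeR it rose with TC against vehicle (log2FC 1.92, adjusted p = 0.000366) and fell with SR-3420 under TC (log2FC -1.29, adjusted p = 0.000651). The only tested endothelial gene, Kdr, rose by edgeR with SR-3420 under TC (log2FC 0.96) and under ETO (1.28). The muscle gene Des fell by edgeR in both, from means of 6.95 to 2.95 CPM with TC and 7.02 to 3.28 CPM with ETO. The bearing of Cd68, Kdr and Des on the droplet genes was not tested.

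Promoters were drawn from RefSeq (mouse build GRCm38.p6), where 9 of the 10 genes had an entry, in 14 windows that each run from 250 bases before to 50 after a start site. A pair of risers (Plin2, Hilpda) and a pair of fallers (Plin1, Cidec) are shown, because they moved in opposite directions with SR-3420 in inhibitor-treated cells; with SR-3420 alone only Plin2 and Hilpda passed the test. Capitals mark AGGTCA, the hexamer read by PPARs and related receptors, and ACGTG or GCGTG, the core read by hypoxia-inducible factors, on either strand. Neighbouring matches can share letters, as in the CACGTG of Plin2, which also matches the E-box CANNTG.
Plin2 (chr4:86670010-86670309, minus strand): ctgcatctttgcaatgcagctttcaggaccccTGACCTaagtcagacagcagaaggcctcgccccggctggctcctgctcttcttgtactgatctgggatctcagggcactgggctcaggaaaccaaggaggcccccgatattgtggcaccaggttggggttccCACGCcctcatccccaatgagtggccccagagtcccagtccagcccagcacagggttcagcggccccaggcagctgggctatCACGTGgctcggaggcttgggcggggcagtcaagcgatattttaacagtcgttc
Hilpda (chr6:29272376-29272675, plus strand): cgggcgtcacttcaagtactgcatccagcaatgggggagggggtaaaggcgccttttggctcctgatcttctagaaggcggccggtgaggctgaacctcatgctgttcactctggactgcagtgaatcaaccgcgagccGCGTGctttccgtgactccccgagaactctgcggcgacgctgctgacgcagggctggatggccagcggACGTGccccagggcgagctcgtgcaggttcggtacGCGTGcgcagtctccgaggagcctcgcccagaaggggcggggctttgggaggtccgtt
Plin1 (chr7:79732727-79733026, minus strand): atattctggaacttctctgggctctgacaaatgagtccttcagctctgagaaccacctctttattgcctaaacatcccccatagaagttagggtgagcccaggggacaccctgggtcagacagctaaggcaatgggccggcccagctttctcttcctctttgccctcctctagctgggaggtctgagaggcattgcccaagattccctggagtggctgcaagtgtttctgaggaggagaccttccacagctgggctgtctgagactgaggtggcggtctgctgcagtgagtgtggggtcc
Cidec (chr6:113434715-113435014, minus strand): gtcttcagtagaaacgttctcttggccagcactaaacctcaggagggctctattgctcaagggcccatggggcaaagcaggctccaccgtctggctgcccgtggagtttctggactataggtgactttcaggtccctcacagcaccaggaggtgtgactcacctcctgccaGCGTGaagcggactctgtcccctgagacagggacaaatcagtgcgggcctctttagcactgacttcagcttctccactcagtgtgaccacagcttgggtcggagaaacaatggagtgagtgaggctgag

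ACGTG occurred in 2 of the 14 windows, that of Plin2 and that of Hilpda shown, where 19.6% of all 32851 RefSeq windows hold it. No window of the other 7 genes held it, but the share among the 14 windows was not above that of all windows. The match thus does not set Plin2 and Hilpda apart. In the Hilpda window shown it began 43 bases before the start site at 29272626, with GCGTG at 111 and at 8 bases before. The window of the other Hilpda start site, at 29272488, held no ACGTG and 1 GCGTG, at position 28 after that start. In Plin2 the CACGTG lay at the start site, its ACGTG on the gene's own strand beginning 3 bases before. GCGTG was found in 9 of the 14 windows, from 6 of the 9 genes (32.4% of all windows hold it). The windows of Hilpda overlap and share a site, as do those of Plin5. AGGTCA was found in 4 of the 14 windows, from Plin2, Plin5 and Bscl2 (16.3% of all windows). The Plin1 window held none of these letters. A match describes the letters only, and no binding was measured in these data.

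The direct repeat bound by PPAR heterodimers, AGGTCA written 2 times with 1 base between, was then sought in the 2000 bases before each gene's start on mm9, the build of the count table. With at most 1 letter changed it occurred before 1 of the 10 genes, Plin1, and before 3.94% of all 20295 genes. The Plin1 copy, aggtcaaaggaca, lies at chr7:86879185-86879197, at -1535 from the start. With at most 2 letters changed the repeat was also found before Plin2, Plin4, Plin5 and Hilpda, so 5 of the 10 genes held one against 24.5% of all genes. The distal Plin2 copy, aggtgaaagggca, lies at chr4:86317895-86317907, and agggcaaaggcca lies at chr17:56250724-56250736, in the 1798 bases between Plin4 and Plin5. None of the 8 copies found lies in an annotated gene. Both Plin1, which fell with SR-3420 in inhibitor-treated cells, and Plin2, which rose, were thus among the genes with such a repeat.

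In the count table Plin4 (NM_020568, 56240014 to 56249225) and Plin5 (NM_025874, 56251024 to 56256971) are neighbours on the minus strand of chromosome 17, and Plin3 (NM_025836) starts 161413 bases further on, beyond 7 other genes. Plin1 (NM_001113471) spans 86866050 to 86877662 on the minus strand of chromosome 7, with 9 exons. Plin2 (NM_007408) spans 86302469 to 86315963 on the minus strand of chromosome 4. Hilpda (NM_001190461, 29222488 to 29225449, plus strand) and Cidec (NM_001301295, 113374628 to 113385754, minus strand) lie on chromosome 6. Bscl2 (NM_001136064) spans 8911957 to 8923173 on the plus strand of chromosome 19, with 12 exons, and Cideb (NM_009894) spans 56372892 to 56377261 on the minus strand of chromosome 14. Cidea (NM_007702) lies on the plus strand of chromosome 18, from 67503218 to 67527448. Each of 3 genes overlaps another on the opposite strand, and whether strand was used in counting is not given in the sources used here, so these counts may be shared. They are Plin4 with Hdgfrp2 (mean 1784 and 117 CPM), Bscl2 with Gng3 (107 and 2.07 CPM) and Cideb with Nop9 (0.884 and 49.0 CPM).

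Levels between genes were compared as CPM per kb of counted length (RPKM). In vehicle-treated cells Cidec (985 ± 324) and Plin1 (815 ± 248) were highest, with Plin4 (372 ± 103) and Plin2 (218 ± 60.6) next (SD, n = 2 throughout). Bscl2 (99.4 ± 23.6) and Plin3 (55.2 ± 14.7) formed the middle of the order. Cidea (14.9 ± 7.77), Hilpda (13.3 ± 2.09), Plin5 (6.57 ± 3.09) and Cideb (3.17 ± 2.02) were low. Cidec was above Plin1 in both vehicle samples (1215 against 990 RPKM in replicate 2 and 756 against 640 RPKM in replicate 3). The order of Cidea and Hilpda differed between these samples. Differences between genes were not tested. After SR-3420 with TC, Plin2 led at 895 ± 106 RPKM (SD, n = 3), above Cidec (392 ± 68.0), Plin1 (292 ± 57.1) and Plin4 (169 ± 33.4), and Hilpda (116 ± 4.37) stood above Bscl2 (36.3 ± 2.15).

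**Figure D1:**
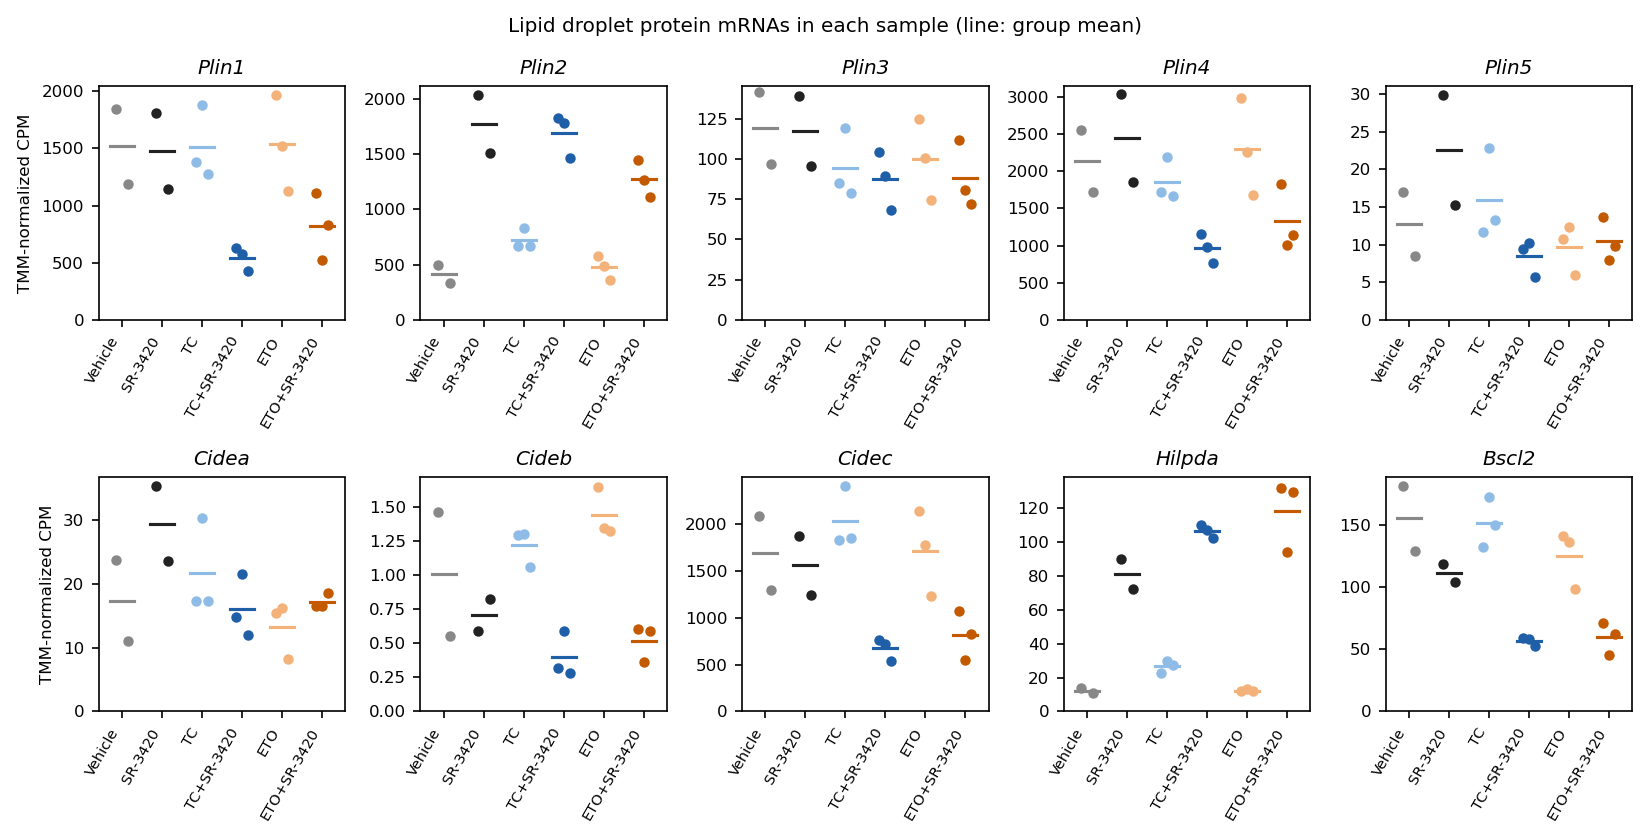
TMM-normalized CPM (vertical axes, from 0) of the 10 genes in each of the 16 samples, by group; points are samples and lines group means. Plin2 and Hilpda are higher in every SR-3420 sample than in any sample without it, and Plin1, Cidec and Bscl2 are lowest in the groups that had SR-3420 with an inhibitor.

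The first question was how these genes respond to lipolysis alone. Plin2 and Hilpda rose with SR-3420, by 4.30-fold and 6.62-fold. The other 8 genes did not pass the test, so 2 of 10 genes were higher and 0 lower, where 4.75% of all tested genes were higher and 2.79% lower. Calls over all genes in either direction went from 964 to 47 in a fit of only the compared groups. The median log2 fold change (log2FC) of the 10 genes was 0.08, against -0.00 for all genes (quartiles -0.34 and 0.32). Tests were edgeR's quasi-likelihood test on the counts, with Benjamini-Hochberg adjustment over all 12786 genes and a threshold of 0.05. The labels do not say whether samples of a group were separate cultures, although the paper speaks of independent experiments, so p-values measure the spread between these samples.

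Hilpda was at 13.6 and 10.9 CPM in the vehicle samples and at 90.1 and 72.2 CPM with SR-3420. It was at 22.9, 29.7 and 27.3 CPM with TC and at 110.1, 107 and 102 CPM with TC and SR-3420. ETO samples had 11.8, 13.0 and 12.1 CPM, and those with ETO and SR-3420 had 132, 94.1 and 129 CPM. The groups with SR-3420 did not overlap those without it, and the TC samples lay between the vehicle samples and every SR-3420 sample. Its log2FC with SR-3420 was 2.73 (SE 0.20, adjusted p = 7.58e-06) without inhibitor, 2.00 (SE 0.16, adjusted p = 3.07e-06) with TC and 3.27 (SE 0.17, adjusted p = 1.58e-07) with ETO, by edgeR. TC alone also raised Hilpda (log2FC 1.12, SE 0.18, adjusted p = 0.00125 from edgeR), and ETO alone left it at a log2FC of 0.00 (SE 0.18, adjusted p = 1.000 from edgeR).

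The response of Hilpda to SR-3420 was smaller with TC than with ETO by 1.27 on the log2 scale (-1.27, SE 0.22, adjusted p = 0.00937 from edgeR). Of all tested genes, 0.774% were lower in that test. Among the 10 genes no other difference of responses passed in the 3 edgeR tests of the fit without a block for replicate number. With that block other members passed for the response difference of TC and none, as given in the last section. The samples treated with SR-3420 reached like levels in both arms, at 106 ± 4.02 and 118 ± 21.1 CPM (SD, n = 3), with a log2FC of -0.15 (SE 0.15, adjusted p = 0.998 from edgeR). Without SR-3420 the TC samples were higher than the ETO samples (log2FC 1.12, SE 0.16, adjusted p = 0.000382 from edgeR), which made Hilpda 1 of 10 genes higher in TC than in ETO, where 8.08% of all tested genes were. Against no inhibitor, the response differed by -0.73 with TC (SE 0.25, adjusted p = 0.145) and by 0.54 with ETO (SE 0.25, adjusted p = 0.988), neither past the threshold of edgeR's test.

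Plin2 was at 493 and 331 CPM in vehicle samples and at 2029.8 and 1513 CPM with SR-3420. With TC it was at 665, 829 and 665 CPM, and at 1826.5, 1779.9 and 1460.3 CPM when SR-3420 followed. With ETO it was at 576, 485 and 364 CPM, and at 1448, 1265 and 1113 CPM when SR-3420 followed. Every SR-3420 sample was above every sample without it, and the TC samples were above both vehicle samples. The log2FC of SR-3420 was 2.10 (SE 0.26, adjusted p = 0.000421) without inhibitor, 1.23 (SE 0.21, adjusted p = 0.000494) with TC and 1.43 (SE 0.21, adjusted p = 0.000337) with ETO, by edgeR. In a fit of the vehicle and SR-3420 samples alone, the first of these had an adjusted p of 0.0524.

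TC without SR-3420 raised Plin2 as well (log2FC 0.80, SE 0.23, adjusted p = 0.0394 from edgeR), so that Plin2 and Hilpda were the 2 of 10 genes higher with TC than with vehicle, where 4.77% of all tested genes were higher. The Plin2 call was lost when vehicle replicate 3 (log2FC 0.55) or TC replicate 1 (0.86), 2 (0.69) or 3 (0.86) was left out, and in a fit of only the TC and vehicle samples (adjusted p = 0.0502 from edgeR). This comparison shares its vehicle samples with that of SR-3420 against vehicle. Its calls over all genes were fewer in every fit that left out 1 of the compared samples, as given in the last section. With ETO alone the log2FC of Plin2 was 0.20 (SE 0.23, adjusted p = 1.000 from edgeR). None of the 10 genes passed in ETO against vehicle, 0 had an unadjusted p under 0.05, DESeq2's Wald test also gave 0, and 0.0235% of all tested genes were called.

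Inhibitor-treated cells gave a second pattern, a fall with SR-3420 of genes that did not pass the test without inhibitor. With TC, 5 of the 10 genes fell (Plin1, Plin4, Cideb, Cidec and Bscl2) and 2 rose, where 19.7% of all tested genes were lower and 17.3% higher. With ETO, 4 fell (Plin1, Cideb, Cidec and Bscl2) and the same 2 rose, where 12.8% of all tested genes were lower and 12.5% higher. The median log2FC of the 10 genes was -0.92 with TC and -0.49 with ETO, against 0.02 and 0.01 for all genes. The comparisons with inhibitors rest on 3 samples per group and that without on 2. In the fit of all groups without a block, none of the falls passed edgeR's test of the difference from the response without inhibitor. With a block for replicate number, Plin1 (adjusted p = 0.0257), Plin4 (0.0323), Cidec (0.0176) and Bscl2 (0.0352) passed edgeR's test for TC against none. Cideb did not, and none of the falls passed for ETO against none. Plin2, Plin5 and Cidea, which were not among the falls, also passed for TC against none with the block. Over all tested genes the block gave more calls for TC against none than the 321 without it, as given in the last section. The counts that follow are without the block. For TC against none, 0 of the 10 genes passed edgeR's test of the response difference and 8 had an unadjusted p under 0.05, with 1 by DESeq2 (Cidec, log2FC -1.43, adjusted p = 0.0397 from its Wald test); 2.51% of all tested genes passed, 321 genes that became 58 without SR-3420 replicate 1 or without vehicle replicate 3. For ETO against none, 0 passed and 2 had an unadjusted p under 0.05, with 0 by DESeq2, and 0% of all tested genes passed. Of all 12786 tested genes, 2130 had an unadjusted p under 0.05 in edgeR's test for TC against none. For ETO against none 307 did.

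**Figure D2:**
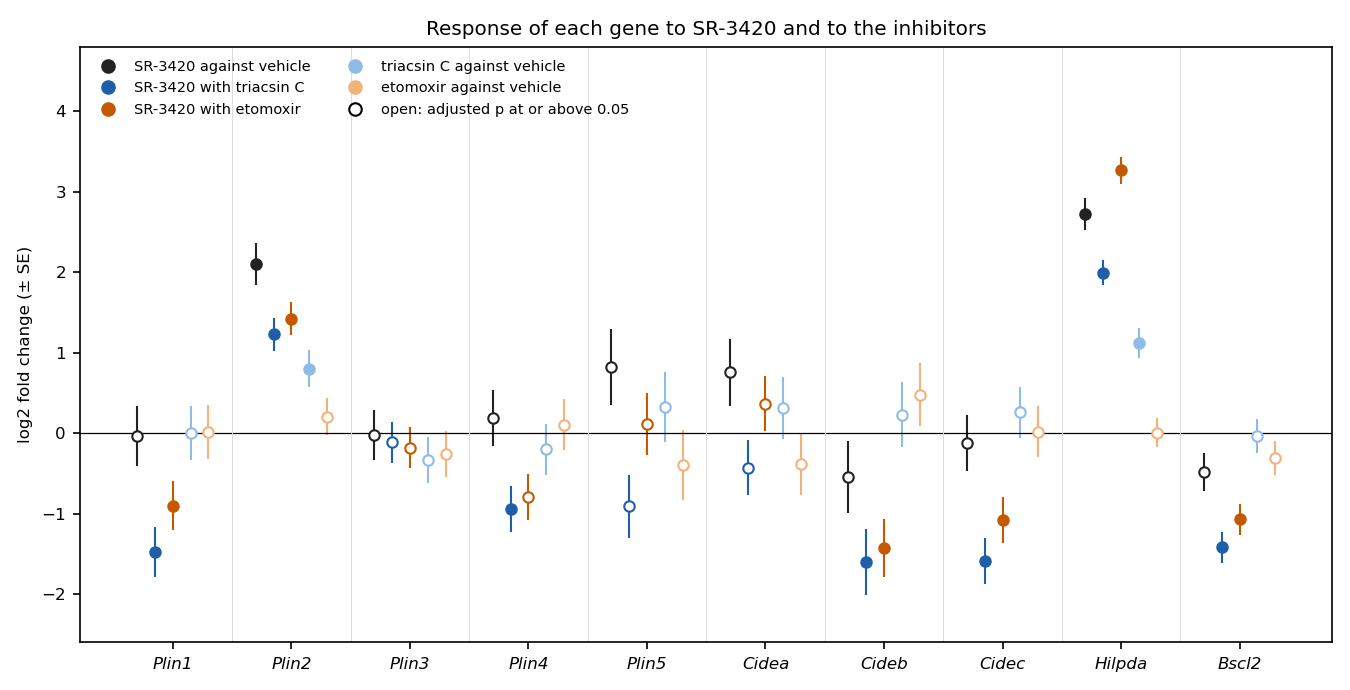
Log2 fold change (vertical axis) with its SE for each gene in 5 comparisons; filled points passed the threshold of 0.05 on the adjusted p of edgeR and open points did not. Plin2 and Hilpda lie above 0 in the 3 SR-3420 comparisons, while Plin1, Cideb, Cidec and Bscl2 lie below -0.85 in both comparisons with an inhibitor.

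Plin1, the coat protein of mature adipocyte droplets, was at 1842 and 1191 CPM with vehicle and at 1811 and 1148 CPM with SR-3420. With TC it was at 1382, 1879 and 1278 CPM, and at 631, 573 and 425 CPM after SR-3420. With ETO it was at 1968, 1517 and 1127 CPM, and at 1114, 528 and 828 CPM after SR-3420. Vehicle and SR-3420 samples overlapped, whereas in each inhibitor arm all samples with SR-3420 lay below all samples without it. The log2FC was -0.04 (SE 0.37, adjusted p = 0.970) without inhibitor, -1.48 (SE 0.31, adjusted p = 0.00216) with TC and -0.90 (SE 0.30, adjusted p = 0.0441) with ETO, by edgeR. The call with ETO was lost when ETO replicate 1 (log2FC -0.68) or 2 (-0.91) or ETO+SR-3420 replicate 2 (-0.66) or 3 (-0.90) was left out. It was also lost in a fit of only the compared groups. Plin1 varied widely within groups, and in ETO+SR-3420 its lowest sample, replicate 2, was also the lowest for Plin4, Cidec and Bscl2.

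Plin4, a perilipin of adipocytes that coats new droplets, was at 2559.6 and 1718 CPM with vehicle and at 3033 and 1851 CPM with SR-3420. TC samples had 1715, 2194 and 1669 CPM without SR-3420 and 1152, 987 and 769 CPM with it. ETO samples had 2981, 2253 and 1674 CPM without SR-3420 and 1825, 1007 and 1148 CPM with it. The groups with and without SR-3420 were apart under TC and overlapped under ETO and with no inhibitor. The log2FC was -0.94 with TC (SE 0.29, adjusted p = 0.0203) and -0.80 with ETO (SE 0.29, adjusted p = 0.0576) by edgeR, the latter not past the threshold. With ETO it passed by DESeq2's Wald test (adjusted p = 0.0305) and by edgeR without the low-count filter (adjusted p = 0.0490). It also passed by edgeR with a block for replicate number (adjusted p = 0.00230). The call with TC was lost without TC replicate 2 (log2FC -0.80) or TC+SR-3420 replicate 2 (-0.90) or 3 (-0.80).

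Plin5 and Plin3 did not pass in any of the 12 comparisons of the edgeR fit of all groups without a block for replicate number. Their calls with that block are in the last section. Plin5 passed by DESeq2's Wald test with TC added to SR-3420 (adjusted p = 0.0247), and with SR-3420 under TC in an edgeR fit of only those groups (adjusted p = 0.0429). Plin5, the perilipin of oxidative tissues, ranged from 5.72 CPM in TC+SR-3420 replicate 3 to 29.9 CPM in SR-3420 replicate 1. Its mean was 12.7 ± 6.00 CPM with vehicle and 22.6 ± 10.3 CPM with SR-3420 (SD, n = 2), a log2FC of 0.82 (SE 0.47, adjusted p = 0.338 from edgeR). With TC its mean was 15.9 ± 6.02 CPM without and 8.50 ± 2.44 CPM with SR-3420 (SD, n = 3), a log2FC of -0.91 (SE 0.39, adjusted p = 0.0844 from edgeR). Plin3, the perilipin that moves from the cytosol to droplets, had group means from 87.2 to 119 CPM and log2FC between -0.43 and 0.07 in the 12 comparisons. On the log2 scale its range of group means (0.445) was the narrowest among the 10 genes.

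Of the CIDE genes, Cidec and Cideb fell with SR-3420 in both inhibitor arms. Cidea passed in no comparison of the edgeR fit of all groups without a block for replicate number. Its calls with that block are in the last section. Cidec, which enlarges droplets in white and brown adipocytes, was at 2089 and 1300.1 CPM with vehicle and at 1869 and 1248 CPM with SR-3420. TC samples had 1833, 2404 and 1854 CPM without SR-3420 and 763, 719.6 and 542 CPM with it. ETO samples had 2139.6, 1775 and 1235 CPM without SR-3420 and 1073, 548 and 822 CPM with it. Both inhibitor arms were fully separated, and the vehicle and SR-3420 samples overlapped. The log2FC was -0.12 (SE 0.34, adjusted p = 0.881) without inhibitor, -1.59 (SE 0.29, adjusted p = 0.000842) with TC and -1.08 (SE 0.28, adjusted p = 0.0139) with ETO, by edgeR. The call with ETO was lost without ETO replicate 1 (log2FC -0.89) or ETO+SR-3420 replicate 2 (-0.86), and in a fit of only the compared groups.

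Cideb, better known from liver, had only 3 to 25 counts per sample over a counted length of 318 bases. These correspond to 0.281 to 1.65 CPM, so its values carry large counting error, and its overlap with the more abundant Nop9 adds to the doubt. The 318 bases are fewer than the 657 coding bases of its longest annotated coding transcript, so not all of that transcript was counted. The log2FC of Cideb was -1.60 with TC (SE 0.41, adjusted p = 0.00764) and -1.43 with ETO (SE 0.36, adjusted p = 0.0106) by edgeR. Nop9 had a log2FC of 0.20 and 0.44 in these comparisons. Cidea, a droplet gene typical of brown fat, had a mean of 17.4 ± 9.04 CPM with vehicle and 29.4 ± 8.32 CPM with SR-3420 (SD, n = 2), and its samples in these groups overlapped. Its log2FC with SR-3420 was 0.76 (SE 0.42, adjusted p = 0.319) without inhibitor, -0.43 (SE 0.34, adjusted p = 0.348) with TC and 0.37 (SE 0.34, adjusted p = 0.474) with ETO, by edgeR.

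Bscl2, the seipin gene, was at 182 and 129 CPM with vehicle and at 118 and 104 CPM with SR-3420. TC samples had 133, 173 and 150.3 CPM without SR-3420 and 58.8, 58.6 and 52.9 CPM with it. ETO samples had 142, 137 and 98.4 CPM without SR-3420 and 71.6, 45.6 and 62.1 CPM with it. In all 3 arms every sample with SR-3420 lay below every sample without it. The log2FC was -0.48 (SE 0.23, adjusted p = 0.253) without inhibitor, -1.42 (SE 0.19, adjusted p = 0.000112) with TC and -1.07 (SE 0.19, adjusted p = 0.00148) with ETO, by edgeR. Both calls held whichever sample of the compared groups was removed.

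Adding TC to SR-3420 addressed whether FA activation changes the level reached during lipolysis. Against SR-3420 alone, 4 of the 10 genes were lower, Plin1 by 2.72-fold, Plin4 by 2.52-fold, Cidec by 2.31-fold and Bscl2 by 1.96-fold, where 3.55% of all tested genes were lower; calls over all genes in either direction went from 585 to 54 without SR-3420 replicate 1. Their log2FC were -1.45 (SE 0.33, adjusted p = 0.0248), -1.33 (SE 0.31, adjusted p = 0.0284), -1.21 (SE 0.31, adjusted p = 0.0422) and -0.97 (SE 0.21, adjusted p = 0.0195) by edgeR. Each TC+SR-3420 sample was below both SR-3420 samples for these 4 genes, and also for Plin5 and Cidea, which did not pass. How many of all tested genes separate in this way was not counted. The 4 calls rest on 2 SR-3420 samples. Without SR-3420 replicate 1 none of the 4 passed (log2FC of Plin1, Plin4, Cidec and Bscl2: -1.08, -0.93, -0.89 and -0.88). None passed without TC+SR-3420 replicate 1 (-1.57, -1.48 and -1.30, with Bscl2 at an adjusted p of 0.0534 from edgeR) or 3 (-1.30, -1.19, -1.07 and -0.92), nor in a fit of only these groups. Only Bscl2 passed without TC+SR-3420 replicate 2 (adjusted p = 0.0493 from edgeR, with the other log2FC at -1.49, -1.35 and -1.26), and only Plin1 and Plin4 without SR-3420 replicate 3 (-1.74, -1.65, -1.47 and -1.06). Plin2 (log2FC -0.07, SE 0.23, adjusted p = 0.887) and Hilpda (0.39, SE 0.17, adjusted p = 0.230) did not pass in edgeR's test.

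Adding ETO to SR-3420 gave 0 calls among the 10 genes by edgeR, where 0.00782% of all tested genes were called, and 1 by DESeq2. Calls gained with a block for replicate number are given in the last section. In edgeR's test 6 of the 10 genes had an unadjusted p under 0.05, as did 1279 of all 12786 tested genes. The log2FC of these 6 were -1.10 for Plin5 (SE 0.42), -0.94 for Cidec (SE 0.31), -0.90 for Bscl2 (SE 0.21), -0.88 for Plin4 (SE 0.31), -0.85 for Plin1 (SE 0.33) and, in the other direction, 0.55 for Hilpda (SE 0.17). The DESeq2 call was Bscl2 (adjusted p = 0.0270 from its Wald test). With both inhibitors set against each other in SR-3420-treated cells, edgeR called 0 of the 10 genes, 0 had an unadjusted p under 0.05 and DESeq2 called 0, where 0.297% of all tested genes passed. A p above the threshold does not show that TC and ETO act alike, and the log2FC ranged from -0.60 (Plin1, SE 0.30) to 0.41 (Plin2, SE 0.20).

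The make-up of perilipin mRNA was described by each gene's share of summed perilipin RPKM. In vehicle samples Plin1 made up 55.5 ± 0.640%, Plin4 25.4 ± 0.387% and Plin2 14.9 ± 0.234% (SD, n = 2). With SR-3420, Plin2 reached 42.6 ± 2.98% and Plin1 35.5 ± 1.56% (SD, n = 2). With TC the Plin2 share was 24.4 ± 1.26% before and 64.1 ± 2.04% after SR-3420, and with ETO it was 16.6 ± 0.771% before and 49.2 ± 7.06% after (SD, n = 3). The share of Plin1 was 20.7 ± 1.12% with TC and SR-3420 and 31.2 ± 6.02% with ETO and SR-3420 (SD, n = 3). The 16 samples split cleanly by SR-3420, with Plin2 at 40.5% or more in every sample that had it and at 25.7% or less in every other. Plin5 stayed at 0.621% or less. These shares were not tested, and their order depends on the division by length. From counts not divided by length, Plin4 was highest with vehicle (51.0%, with Plin1 at 36.0%). With SR-3420 Plin4 was then at 41.6%, above Plin2 at 30.8%.

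**Figure D3:**
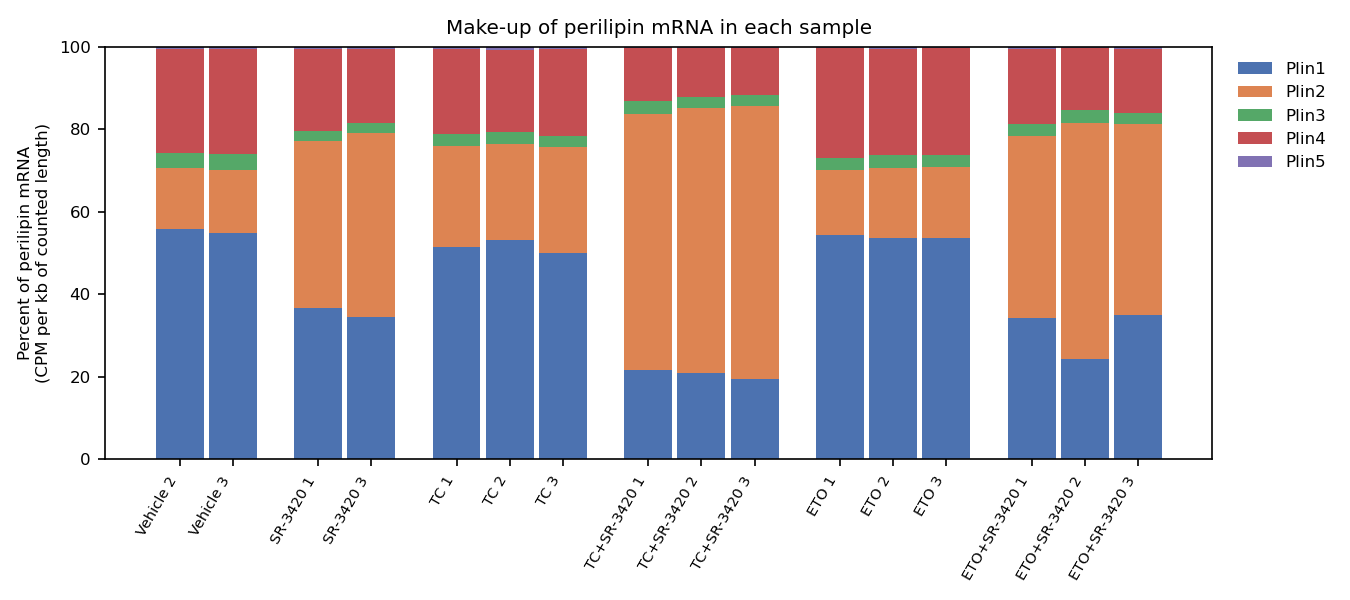
Share of each perilipin in the summed perilipin CPM per kb of counted length (vertical axis, percent), 1 bar per sample. Plin2 takes 40.5 to 66.1% in the samples with SR-3420 and 14.8 to 25.7% in those without.

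Summed perilipin mRNA was 1468 ± 430 RPKM with vehicle and 2225 ± 610 RPKM with SR-3420 (SD, n = 2), groups whose ranges did not overlap by a narrow margin (1771 against 1793). With TC the sum was 1570.3 ± 286 RPKM without and 1400.4 ± 204 RPKM with SR-3420, and with ETO 1529.8 ± 409 and 1395 ± 305 RPKM (SD, n = 3). In both inhibitor arms the ranges overlapped, and the sums were not tested.

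The summed CPM of the brown adipocyte markers, mostly Fabp4, Adipoq and Lipe, was lower in the same groups. For the 12 genes it was 12165 and 11573 with vehicle and 8860 and 8703 with SR-3420. It was 13061, 13485 and 13803 with TC and 5029, 5157 and 5597 with TC and SR-3420. It was 11589, 10883 and 12595 with ETO and 6135, 4841 and 8159 with ETO and SR-3420. Fabp4 was the most abundant gene in each group, Dio2 was at 0 in 12 samples, and no other marker was at 0 in any sample. Of the 11 tested, 6 were lower and 1 higher with SR-3420 under TC (19.7% and 17.3% of all tested genes), 4 were lower under ETO (12.8% of all) and 2 were lower without inhibitor (2.79% of all). Ucp1 had a log2FC above 0 in all 3 arms (0.84, 0.75 and 1.11) and passed in none. The 7 preadipocyte markers summed to 165 to 250.4 CPM in vehicle and TC samples, 134 to 204 CPM in ETO samples and 235 to 396 CPM in those with SR-3420, with none at 0. Of these 7, 1 was higher with SR-3420 alone (4.75% of all tested genes), 3 with TC (17.3% of all) and 5 with ETO (12.5% of all), and 0 were lower by edgeR. Averaged over all samples Thy1 was the most abundant of them, at 64.3 CPM, and in vehicle and ETO samples Pdgfra averaged more (47.1 and 45.4 against 43.0 and 41.0 CPM). In bulk RNA, fewer mature adipocytes and less of these mRNAs per cell cannot be told apart, and the part of either in the falls of Plin1, Plin4, Cidec and Bscl2 was not tested.

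Other genes of the pathway were counted from fixed lists, to be read beside the shares of all tested genes: 4.75% higher and 2.79% lower with SR-3420 alone, 17.3% and 19.7% with TC, and 12.5% and 12.8% with ETO. Of 10 lipolysis enzymes and regulators, 0 rose and 2 fell with SR-3420 alone, 7 fell with TC and 5 fell with ETO. Pnpla3, a lipase related to ATGL, fell in all 3 arms (log2FC -1.34, -2.35 and -1.56), as did the carboxylesterase gene Ces1d (-0.98, -1.88 and -1.42). Pnpla2, which encodes ATGL, fell with TC (log2FC -1.35, SE 0.31, adjusted p = 0.00406) and ETO (-0.88, SE 0.31, adjusted p = 0.0492) by edgeR. Lipe, which encodes hormone-sensitive lipase, fell with TC (log2FC -1.13) and Mgll, which encodes monoacylglycerol lipase, fell with ETO (-1.15). The median log2FC of the list was -0.19, -0.87 and -0.67 in the 3 arms.

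Of 12 tested genes of droplet formation and triglyceride synthesis, 0 passed with SR-3420 alone, 7 fell and 1 rose with TC, and 3 fell with ETO. Fitm2, which partitions triglyceride into droplets, fell with TC (log2FC -1.63, SE 0.18) and with ETO (-0.97, SE 0.18). The acyltransferase genes Agpat2 (log2FC -1.57) and Dgat1 (-0.96) and the lipin gene Lpin1 (-0.92) fell with TC, and Lpin2 rose (0.53). With TC added to SR-3420, 6 of the 12 were lower (3.55% of all tested genes), Agpat2 (log2FC -1.90), Lpin1 (-1.24) and Fitm2 (-1.15) among them. Of 26 other tested droplet surface proteins, 3 fell with SR-3420 alone (2.79% of all tested genes), 6 with TC (19.7% of all) and 5 with ETO (12.8% of all), and Vim, which encodes vimentin, rose with ETO (log2FC 0.83). Mettl7a1, a methyltransferase-like droplet protein, fell in all 3 arms (log2FC -1.44, -1.96 and -1.58).

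Lists matched to what is known of the risers split in another way. Of 16 known PPAR targets, 5 rose with SR-3420 alone, 3 rose and 8 fell with TC, and 3 rose and 4 fell with ETO. Fgf21 (log2FC 3.70, 2.13 and 1.62), Pdk4 (2.25, 1.19 and 1.61) and Angptl4 (2.10, 0.87 and 1.57) rose in all 3 arms. Ehhadh, a peroxisomal oxidation enzyme, fell with TC (log2FC -1.83) and ETO (-1.28), and Ucp3, a mitochondrial carrier, fell with TC (-1.63). Of 12 known hypoxia-inducible factor targets, 9 rose with SR-3420 alone, 7 rose and 2 fell with TC, and 10 rose with ETO. Their median log2FC was 1.39, 0.87 and 1.75. Slc2a1, the GLUT1 gene (log2FC 2.26, 1.87 and 2.13), and Ero1l, an oxidase of the endoplasmic reticulum (1.92, 1.82 and 2.31), rose in all 3 arms. The sample labels name no change of oxygen, and hypoxia itself was not tested.

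**Figure D4:**
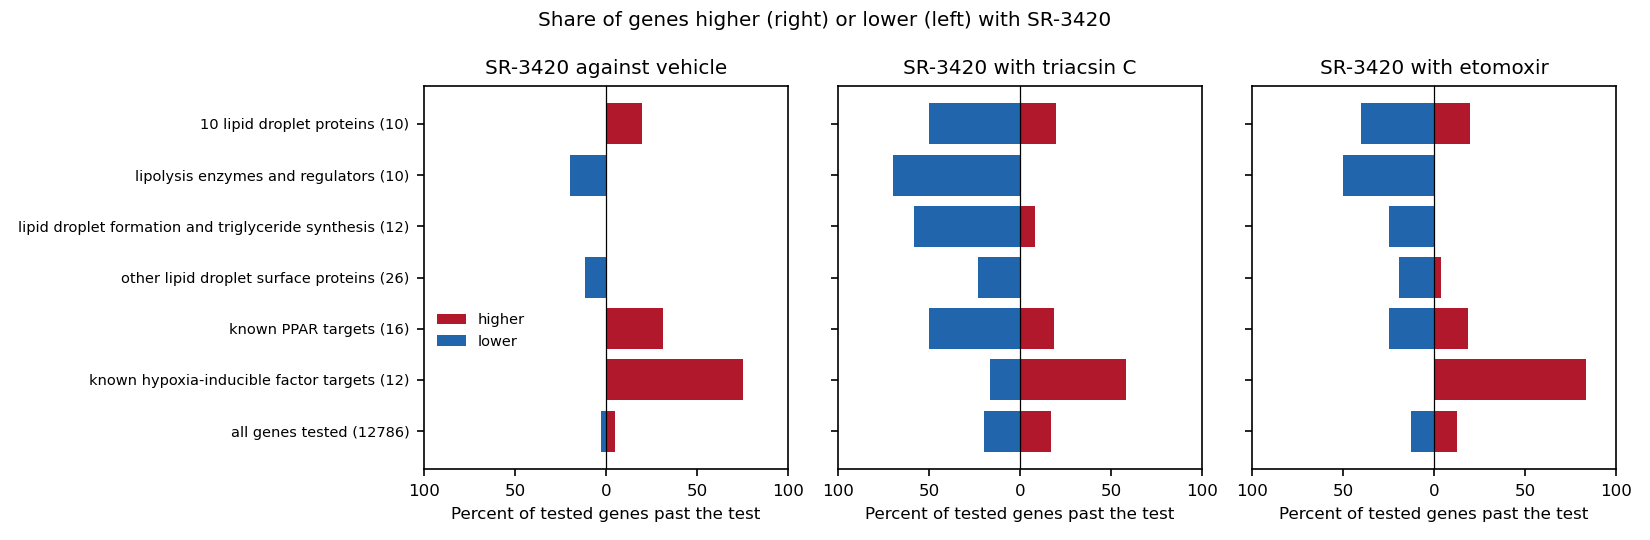
Percent of tested genes higher (right) or lower (left) with SR-3420, past an adjusted p of 0.05 in edgeR, for the 10 droplet genes, 5 lists and all 12786 genes, with list sizes in brackets; the 3 panels are no inhibitor, TC and ETO. The lower shares of the droplet, lipolysis and droplet formation genes are larger in the panels with inhibitors, whose groups hold 3 samples each.

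Likeness was measured over the 6 group means of log2 CPM, each centred on its own mean, as the root mean square (RMS) difference. Among the 10 genes the closest pairs were Cidec and Bscl2 (RMS 0.13), Plin1 and Cidec (0.15), Plin1 and Plin4 (0.17) and Plin5 and Cidea (0.19). Hilpda, with the widest range of group means (3.26 on the log2 scale), was closest to Dusp5 (RMS 0.18), Il6 (0.19) and Gpr35 (0.22). Plin2 (range 2.12) was closest to Epha2 (0.15), Tnc (0.16) and Ier2 (0.16). Cideb (range 1.74, at few counts) was closest to Mzf1 (0.07), Ubd (0.09) and Klhl36 (0.14).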

How the data were processed

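RNA-seq libraries (TruSeq) of 16 samples were analysed. The authors aligned reads with STAR 2.4.2a to mm9, kept 1 read per position and length with HOMER, and deposited raw counts per gene made with iRNA-seq, together with each gene's counted length in bases. Keeping 1 read per position and length can lower the counts of short, abundant genes. Plin2 reached 19.1 counts per base and Cidec 20.4, and how far this compresses their folds was not tested. Strand use in counting is not given in the sources used here.

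From these counts, edgeR 4.0.16 in R 4.3.3 gave log2FC, SE (log2FC divided by the square root of F) and p-values, with TMM normalization, filterByExpr by group and 1 model with a mean for each of 6 groups (10 residual degrees of freedom). Because vehicle and SR-3420 hold 2 samples each, the spread comes from all groups. CPM used TMM library sizes, and log2 CPM a prior count of 1. No pair of columns was identical, and 14 replicate pairs differed by 4.37 to 156 times sampling noise (chi-square per degree of freedom). Totals per sample ranged from 9452861 to 25670624, so counting error is small for Plin1, Plin2, Plin4 and Cidec and large for Cideb.

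The members and gene lists were chosen with earlier results of these data known. All 10 members are named, from each list up to 4 genes past the threshold with the largest log2FC, and the 3 nearest genes of the 3 members with the widest range. Alternatives were DESeq2 1.42.0, median-of-ratios normalization, no low-count filter, a replicate block, only the compared groups, leaving out each sample, other CPM scalings, and shares not divided by length. Promoter letters were searched on both strands. Python 3.11.15 and matplotlib 3.10.9 made the figures.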

Additional observations from a re-analysis of the deposited data

Results flagged for a closer look

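The response of Hilpda to SR-3420 differed between the inhibitor arms. It was smaller with triacsin C than with etomoxir by a log2FC of -1.27 (SE 0.22), the value of edgeR's test of the difference itself, with an adjusted p of 0.00937. The 12 fits that each left out 1 of the samples compared gave values from -1.41 to -1.18, with adjusted p from 0.00629 to 0.0316 by edgeR, and the call also held with DESeq2. The levels without SR-3420 were 26.6 ± 3.47 CPM with triacsin C and 12.3 ± 0.646 CPM with etomoxir (SD, n = 3). The group sizes of 2 and 3 samples allowed no search for samples far from the rest of their group.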

How the results depend on the processing

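Fits of only the compared groups had fewer samples to estimate spread. SR-3420 against vehicle then gave 1 of the 10 genes past the threshold (2 in the fit of all groups), TC against vehicle 1 (2) and TC added to SR-3420 0 (4). Over all tested genes such fits gave 47 calls, against 964, for SR-3420 against vehicle, 1142, against 3234, for SR-3420 with ETO, and 82, against 585, for TC added to SR-3420. They gave 0, against 3, for ETO against vehicle, 0, against 1, for ETO added to SR-3420, and 2, against 38, for TC against ETO with SR-3420. In the inhibitor arms Plin1 (adjusted p = 0.121) and Cidec (0.0706) did not pass edgeR's test with ETO.

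DESeq2 gave 1 gene for ETO added to SR-3420 (0 by edgeR), 2 for TC against ETO (1 by edgeR) and 1 for the response difference of TC and none (0 by edgeR). It also gave 5 for TC added to SR-3420 (4 by edgeR, with Plin5 gained) and 7 for SR-3420 with ETO (6 by edgeR, with Plin4 gained). Among all tested genes its calls held 2153 of edgeR's 2158 for TC against ETO and 3220 of edgeR's 3234 for SR-3420 with ETO. Over all tested genes DESeq2 called 1604 for SR-3420 against vehicle, 17 for ETO against vehicle, 1230 for TC added to SR-3420, 90 for ETO added to SR-3420 and 217 for TC against ETO with SR-3420. For response differences it called 832 for TC and none (321 by edgeR), 9 for ETO and none (0) and 682 for TC and ETO (293). Without the low-count filter, 163 genes passed for the response difference of TC and none, and 0 for ETO added to SR-3420.

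Leaving out 1 sample gave 1 to 2 of the 10 genes for TC against vehicle, 0 to 2 for TC added to SR-3420 and 1 to 2 for TC against ETO. Calls over all tested genes then ranged from 316 to 515 for SR-3420 against vehicle, 1987 to 3191 for SR-3420 with ETO (lowest without ETO+SR-3420 replicate 2) and 707 to 1094 for TC against vehicle (1497 with all samples; lowest without vehicle replicate 3). They ranged from 54 to 397 for TC added to SR-3420 (lowest without SR-3420 replicate 1), 0 to 12 for ETO added to SR-3420, 0 to 3 for ETO against vehicle, 1245 to 2144 for TC against ETO (2158 with all samples) and 3 to 83 for TC against ETO with SR-3420. The response differences ranged from 58 to 180 for TC and none and from 146 to 260 for TC and ETO. Plin2 and Hilpda passed in each such fit of SR-3420 in all 3 arms.

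The samples share only a number, so a block for replicate number was not part of the fit. In 27 of 35 same-numbered pairs from different groups, deviations from the group means correlated above 0.1, and 11 of 16 samples correlated best with a sample of their own number. With the block, 7 of the 10 genes passed for TC added to SR-3420 (4 without), 8 for ETO added to SR-3420 (0), 4 for TC against ETO (1) and 7 for the response difference of TC and none (0), these last being Plin1, Plin2, Plin4, Plin5, Cidea, Cidec and Bscl2. With the block SR-3420 against vehicle gave 3 (2, with Cidea gained), SR-3420 with TC 8 (7, with Plin5 gained) and SR-3420 with ETO 7 (6, with Plin4 gained). Cidea passed in 5 comparisons with the block, Plin5 in 5 and Plin3 in 1. Over all tested genes the block gave 2438 calls for SR-3420 against vehicle, 7185 with TC (4722 without the block), 5776 with ETO, 3072 for TC and 6 for ETO against vehicle. It gave 3008 for TC and 1838 for ETO added to SR-3420, 4994 for TC against ETO and 265 for these with SR-3420. For response differences it gave 1669 for TC and none, 3 for ETO and none and 1055 for TC and ETO.

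Of the log2FC values of called genes under these alternatives, 211 kept the call, 38 did not pass and 0 changed direction. Median-of-ratios normalization moved no count of higher and lower genes by more than 10 percentage points. Other settings moved the share of calls that were higher further. For SR-3420 against vehicle it went from 63% to 97.9% in the fit of only the compared groups. For TC added to SR-3420 it went from 22.4% to 38.8% with DESeq2 and to 42.5% with the block. From counts not divided by length, the Plin2 share of perilipin mRNA was 9.83% with vehicle (14.9% per length), 30.8% with SR-3420 (42.6%), 17.2% with TC (24.4%), 51.4% with TC and SR-3420 (64.1%), 10.8% with ETO (16.6%) and 37.0% with ETO and SR-3420 (49.2%).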
